A study of Mus musculus with 8 samples.

Results

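The peaks described here are regions of lung DNA in which capture of 5-hydroxymethylcytosine (5hmC) gave a listed peak when F0-Saline_F1-HDM mice were searched with F0-Saline_F1-Saline mice as the control. They are every row of that hMeDIP-seq list, 35765 of the 329018 peaks in the 6 lists of the series. Both groups were C57BL/6J F1 males whose dams (F0) received saline, so neither had maternal exposure to house dust mite (HDM). F0-Saline_F1-HDM mice were sensitized to HDM at 6 weeks of age (d0) and challenged with it on d14, d18 and d21, and F0-Saline_F1-Saline mice received saline in its place. Airway responsiveness was measured on d23. Whole lung was used, so a change in the mix of cells and a change of 5hmC within a cell cannot be told apart. Each side was 1 library, whose DNA came from pooled mice of 3 dams and was broken to a mean of 200 bp. There are therefore no replicates, no test between the groups was possible, and every value below describes these libraries. The comparison asks which lung regions carried 5hmC signal after adult allergen challenge in mice with no maternal exposure.

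5hmC arises when TET enzymes oxidize 5-methylcytosine (5mC), the methyl mark that DNMT enzymes place at CpG dinucleotides. It is an intermediate on the way back to unmodified cytosine and also a lasting mark, known from many tissues for its presence along gene bodies and its scarcity at the CpG islands of active promoters. In allergic airway disease, epithelium, smooth muscle and type 2 immune cells are known to change their gene programs. Every row of the list holds coordinates on GRCm38 (mm10), the shape score that the authors' caller gave, its p, and the nearest gene on each side. The list gives no reads, no fold change and no false discovery rate, and does not say whether the mark was gained or lost. The study's methods describe a height threshold set by an estimated false discovery rate of 0.001. The list does not give that quantity, so which of its rows would pass the threshold is unknown. Holding a peak here therefore means any row of the list, at any of its p-values, unless a limit is given. The p reached up to 0.1 and the scores ran from 1.28 to 18.1 with a median of 1.82. At a p of 0.001 or less there were 4633 peaks, at 1e-06 or less 1209, and at 1e-10 or less 434. Intervals on shares are exact Clopper-Pearson intervals at the 95% level and cover the counting of peaks only, since the depth behind a peak is unknown. Tissue identity could not be checked from peaks, and 449 peaks lay on chromosome Y, 425 of them in multi-copy sequence.

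The sequence under 7 peaks gives examples of single-copy places, and these are stronger than most. All 7 scored above 1.655, the median of the 14611 peaks with no copied window. The lowest scores among them were those of Gata3 (3.14) and Tet3 (2.67). Of those 14611 peaks, 35.2% had their centre in coding sequence, and their median CpG content was 3.06 per 100 bp. Each line gives the 201 bases around the centre of the highest-scoring peak in the gene, on the plus strand of GRCm38, with every CpG in capitals. Of these peaks, 6 lie in coding exons, and the last, in Eef2, lies in an intron and is shown for contrast because it had a peak in all 6 lists.
Zfp319, chr8:95328108-95328308: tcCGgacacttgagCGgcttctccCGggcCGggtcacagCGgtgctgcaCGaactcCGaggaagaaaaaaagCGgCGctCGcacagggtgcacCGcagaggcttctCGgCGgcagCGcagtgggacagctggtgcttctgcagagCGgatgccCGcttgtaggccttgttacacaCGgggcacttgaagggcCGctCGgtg
Nfatc2, chr2:168571017-168571217: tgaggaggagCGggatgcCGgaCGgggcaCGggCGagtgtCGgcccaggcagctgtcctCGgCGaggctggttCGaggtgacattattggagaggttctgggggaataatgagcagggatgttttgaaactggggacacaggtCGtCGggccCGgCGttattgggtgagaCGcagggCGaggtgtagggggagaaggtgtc
Tgfbr2, chr9:116109825-116110025: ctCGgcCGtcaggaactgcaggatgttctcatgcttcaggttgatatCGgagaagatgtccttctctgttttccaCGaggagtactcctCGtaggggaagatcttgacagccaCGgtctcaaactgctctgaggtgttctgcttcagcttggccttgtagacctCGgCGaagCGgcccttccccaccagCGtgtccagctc
Jak3, chr8:71679576-71679776: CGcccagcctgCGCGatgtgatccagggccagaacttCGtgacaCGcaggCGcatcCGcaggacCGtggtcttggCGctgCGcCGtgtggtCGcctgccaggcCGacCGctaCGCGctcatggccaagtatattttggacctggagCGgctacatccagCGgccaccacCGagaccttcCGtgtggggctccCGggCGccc
Gata3, chr2:9874615-9874815: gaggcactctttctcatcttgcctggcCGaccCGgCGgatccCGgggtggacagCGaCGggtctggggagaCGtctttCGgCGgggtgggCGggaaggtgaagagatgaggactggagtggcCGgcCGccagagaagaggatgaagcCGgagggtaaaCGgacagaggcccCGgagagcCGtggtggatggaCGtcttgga
Tet3, chr6:83404377-83404577: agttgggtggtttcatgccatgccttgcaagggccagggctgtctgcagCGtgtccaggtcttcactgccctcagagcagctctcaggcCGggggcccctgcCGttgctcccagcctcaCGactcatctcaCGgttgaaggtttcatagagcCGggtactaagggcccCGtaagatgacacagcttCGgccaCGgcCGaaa
Eef2, chr10:81177833-81178033: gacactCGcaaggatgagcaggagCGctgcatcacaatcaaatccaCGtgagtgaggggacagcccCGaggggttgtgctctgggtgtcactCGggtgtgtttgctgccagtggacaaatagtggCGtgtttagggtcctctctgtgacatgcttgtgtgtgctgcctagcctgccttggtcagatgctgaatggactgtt
Among these windows the CpG count was 22 in Jak3, 19 in Zfp319, 17 in Gata3, 15 in Nfatc2, 10 in both Tgfbr2 and Tet3, and 6 in Eef2. The mean of GRCm38 is 0.826 CpG per 100 bp, so all 7 windows held more CpG than the same length of average genome.

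CpG content set the list apart from the genome. The median peak held 3.47 CpG per 100 bp (quartiles 2.75 and 4.48) and a GC content of 52.8%, against 0.571 CpG and 41.4% for the median 700-bp tile of the genome. Only 21 peaks held no CpG. The share of tiles with a peak centre rose from 0.0227% of tiles with up to 1 CpG per 100 bp that were more than 2 kb from a transcription start to 10.5% at 2 to 3 CpG, 47.6% at 3 to 5 and 65.0% at 5 to 8. Close to starts the picture was different. Within 2 kb of a start the share was 17.4% at 3 to 5 CpG, 4.70% at 5 to 8 (interval 4.31 to 5.13) and 1.34% above 8 (interval 1.09 to 1.62). The densest class away from starts stood at 16.4% on 359 tiles (interval 12.8 to 20.7). CpG-dense DNA at gene starts, where CpG islands usually lie, was rarely listed, while most tiles with 5 to 8 CpG farther away were. These shares do not separate distance from a start from repeat content. Of all tiles with 5 to 8 CpG that were mostly not soft-masked as repeats, 6.42% held a peak centre.

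**Figure D1:**
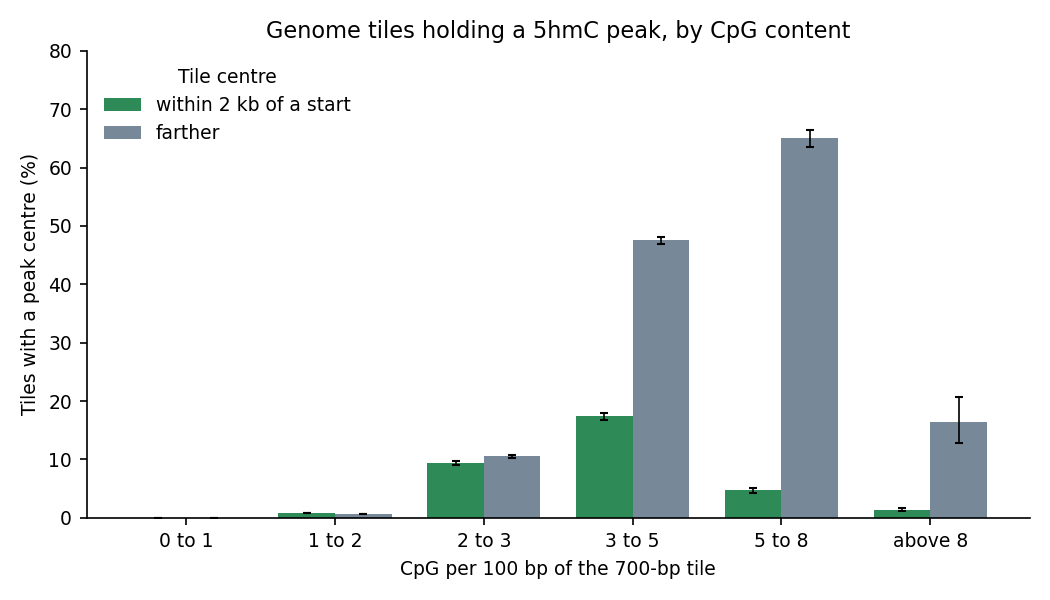
Share of 700-bp genome tiles that hold the centre of a 5hmC peak (vertical axis, percent) by CpG content of the tile (horizontal axis), for tiles within 2 kb of a transcription start (green) and farther away (grey). Bars are shares with exact 95% intervals, and at 5 to 8 CpG per 100 bp the shares are 4.70% near starts and 65.0% elsewhere.

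Many of the CpG-dense tiles with a peak were repeated sequence. Of tiles with 5 to 8 CpG per 100 bp, 83.3% of those mostly soft-masked as repeats held a peak centre (2467 of 2961), against 6.42% of those mostly not masked (751 of 11694). In 14405 peaks, 40.3% of the list, at least 50% of the 51-bp windows had another exact copy in GRCm38. These multi-copy peaks had a median score of 2.23 against 1.66 for the other 21360. Their centres lay in a gene in 28.4% and in coding sequence in 0.632%, against 74.9% and 26.3% for the others. How reads from copied sequence were placed was not tested.

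Repeated sequence filled the strong end of the list. Among the 434 peaks at a p of 1e-10 or less, 88.0% were multi-copy (interval 84.6 to 90.9), the median soft-masked share was 100% and the median CpG content 6.04 per 100 bp. From 1e-10 to 1e-06 the multi-copy share was 89.8%. Among the 13767 peaks with a p from 0.05 to 0.1 these values were 24.1% (interval 23.4 to 24.8), 16.7% and 2.84. The share of centres in a gene went the other way, from 35.0% to 61.5%. Centres within 2 kb of a start made up 10.1% of the strongest peaks and 21.0% of the weakest. At a p of 1e-06 or less, 1078 of 1209 peaks fell into 31 families of related sequence, joined when peaks shared at least 20 identical 51-bp windows. The 3 largest families held 489, 285 and 141 peaks, 75.7% of the 1209, and lay on 20 or 21 chromosomes each. All 3 had median CpG contents of 5.80 to 7.29 per 100 bp and GC contents of 62.6% to 66.6%. The families differed in the 5mC list of the same comparison, which held a peak at 6.34%, 36.1% and 13.5% of their places.

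**Figure D2:**
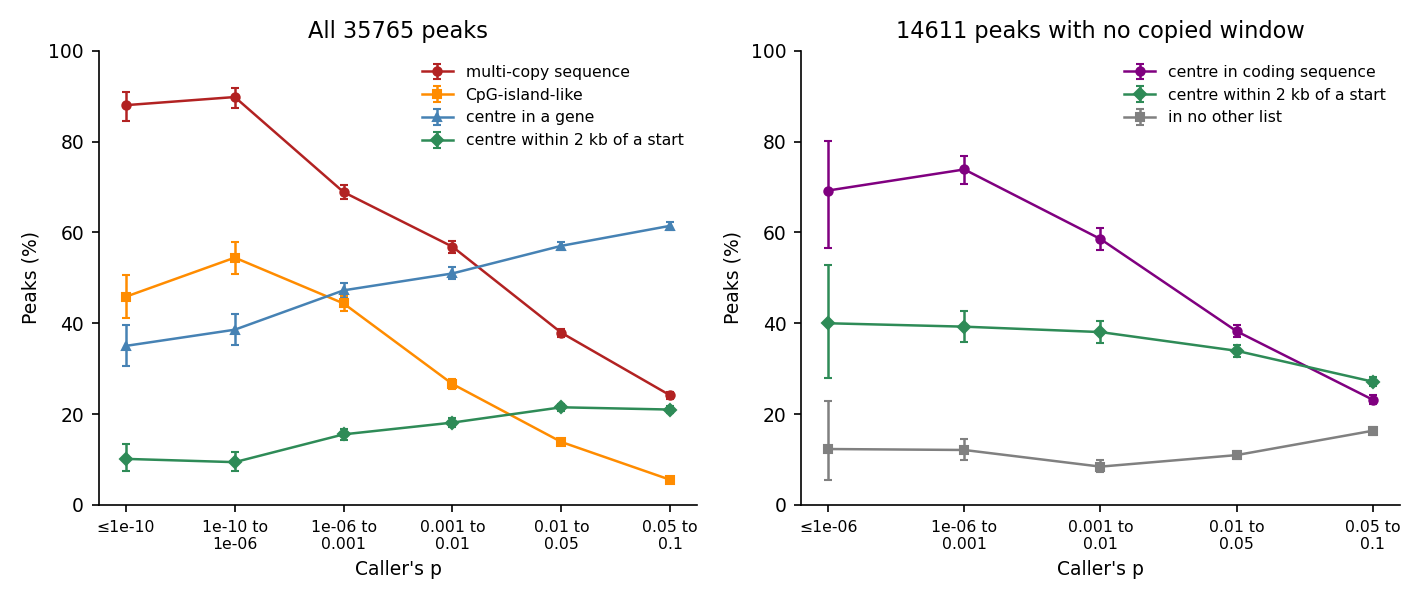
Left, percent of peaks in each class of the caller's p that were multi-copy (red), CpG-island-like with at least 50% GC and an observed to expected CpG ratio of at least 0.6 (orange), centred in a gene (blue) or within 2 kb of a start (green). Right, the same for the 14611 peaks without any copied 51-bp window: centre in coding sequence (purple), within 2 kb of a start (green) or in no other list (grey). Points are shares with exact 95% intervals, and multi-copy sequence makes up 88.0% of the strongest class on the left, and coding sequence 69.2% on the right.

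By name, the 10 strongest peaks sat at few places. The highest score of the list, 18.1, was at Erdr1 on chromosome Y (chrY:90793017-90793786), and its near-copy on chromosome X in an intron of Gm21887 (chrX:170018384-170019169) scored 17.7. Every 51-bp window of these 2 places has another exact copy in GRCm38, so reads of that length cannot be assigned to either. Introns of Sfi1, which encodes a centrosomal protein, held the peak of rank 2 (chr11:3192811-3193573, score 17.9) and that of rank 4 (chr11:3150024-3150870, score 17.5). Both Sfi1 places had peaks in all 6 lists, and few or none of their 51-bp windows had an exact copy. At the ribosomal RNA locus of chromosome 17, Gm26917 and Rn18s-rs5 held 3 of the 10 strongest peaks, with scores of 16.0, 15.4 and 14.7. The remaining 3 of the 10 lay outside genes on X and Y. The greatest length, 848 bp, was shared by 243 peaks, 176 of them with their centre in an annotated gene span. The 5 of these with the highest scores were 1 in an exon of Gm15247 on X (score 12.7) and 4 for which the deposited columns put no gene at the peak, on chromosomes 3, 14, 16 and Y (scores from 7.69 to 13.7).

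Among peaks without copied sequence, the strong end was mostly coding. In the 14611 peaks with no copied window, the centre lay in coding sequence in 23.2% of those with a p from 0.05 to 0.1 (interval 22.2 to 24.2). That share was 73.9% in those from 1e-06 to 0.001 (574 of 777, interval 70.6 to 76.9). Coding sequence makes up 1.38% of GRCm38. The median coding segment under these coding peaks was 399 bp, and 787 bp at a p of 0.001 or less, while the median coding base lies in a segment of 195 bp. Segments over 800 bp hold 22.3% of all coding bases and held 27.4% of the coding peaks, 21.6% of which reached a p of 0.001. In segments of up to 100 bp, 1.56% did.

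Set beside the other lists, the single-copy places ranged from those with a peak in every list to those with one here alone, and most lay between. The examples at both ends were chosen after their values were seen. Of the 65 peaks with no copied window at a p of 1e-06 or less, 16 were in all 6 lists and 8 in no other. Some of the places in all 6 lists scored higher elsewhere. Eef2, an elongation factor of translation, held chr10:81177713-81178156 (score 7.45, and 17.4 and 13.2 in the other hMeDIP-seq lists), and its MeDIP-seq scores were 10.7, 6.87 and 11.7. An intron of Spag17, a protein of the ciliary central apparatus, held chr3:99980847-99981216, with 3 CpG and a score of 5.83 here. Its scores in the other 5 lists ran from 18.2 to 27.5. Introns of Ank1 (score 8.61), Cdk5rap2 (7.38) and Litaf (5.73) likewise had a peak in all 6 lists and a higher score in each of the other 5. The reverse was seen in Gm26917 of the ribosomal RNA locus. Its strongest peak was also in all 6 lists and scored lower in each of the other 5. Copies were counted on the assembled chromosomes only, so copies of that locus missing from the assembly would not be seen.

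At the other end were CpG-rich coding exons that scored low or had no peak elsewhere. A coding exon of Bcl11b, a transcription factor of T cell development, held a peak (score 5.34) with no peak in the other 5 lists. Zfp319, a zinc finger gene, held chr8:95327925-95328718 in exon 2 (66 CpG, score 5.10), also in no other list. Exon 6 of Jak3, the kinase of the common gamma chain cytokine receptors, held chr8:71679280-71679958 (48 CpG, score 4.36), again in no other list. Gata3, the transcription factor that directs type 2 T cells and innate lymphoid cells, held chr2:9874428-9874997 in exon 3 (33 CpG, score 3.14), in no other list. Exon 2 of Nfatc2, a calcium-responsive factor of T cells, held chr2:168570807-168571399 (score 4.98), with 1.56 and 1.52 in the other hMeDIP-seq lists and no 5mC peak. Exon 4 of Tgfbr2, a TGF-beta receptor, held chr9:116109603-116110207 (score 4.01), with 1.43 in 1 other hMeDIP-seq list. Named after their values were seen, Fam50b (5.59), Phldb1 (5.43), Repin1 (5.09), Plec (4.66) and Zfp579 (4.48) were further coding exons with no peak elsewhere. From a p of 1e-06 to 0.001, 94 of the 777 peaks with no copied window were in no other list and 24 in all 6.

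Along genes, the peaks leaned toward the 3' end. Of 17331 peak centres in the 14150 protein-coding genes of at least 10 kb, 5.46% fell in the first decile of the gene and 18.5% in the last (interval 17.9 to 19.1). Coding bases also lean toward the 3' end, with 8.41% in the first decile and 19.3% in the last. All exon bases do so too, with 10.8% and 31.2%. CpG does not, with 15.3% in the first and 10.6% in the last. Peaks outside exons were more even, 5.38% in the first decile, 12.9% in the ninth and 11.6% in the last. Multi-copy peaks were fullest in the middle, with 7.11% in the first, 12.1% in the fifth and 7.77% in the last. The other hMeDIP-seq lists had 17.1% and 16.7% in the last decile and the MeDIP-seq list of the same comparison 10.3%, so the lean was shared by the 5hmC lists. At gene starts, the density of centres fell to 5.66 per Mb between 750 and 250 bp upstream. It stood at 36.3 per Mb in the first 250 bp of the gene, at 11.5 from 750 to 1000 bp, and at 25.6 in the 250-bp bin that ends 5 kb inside. Of all centres, 19.8% were within 2 kb of a start of any transcript (interval 19.4 to 20.2), against 11.1% of the genome. Coding sequence held 16.0% of centres, which is 11.6 times its share of the genome, while introns held 33.1% against 41.2% of the genome.

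**Figure D3:**
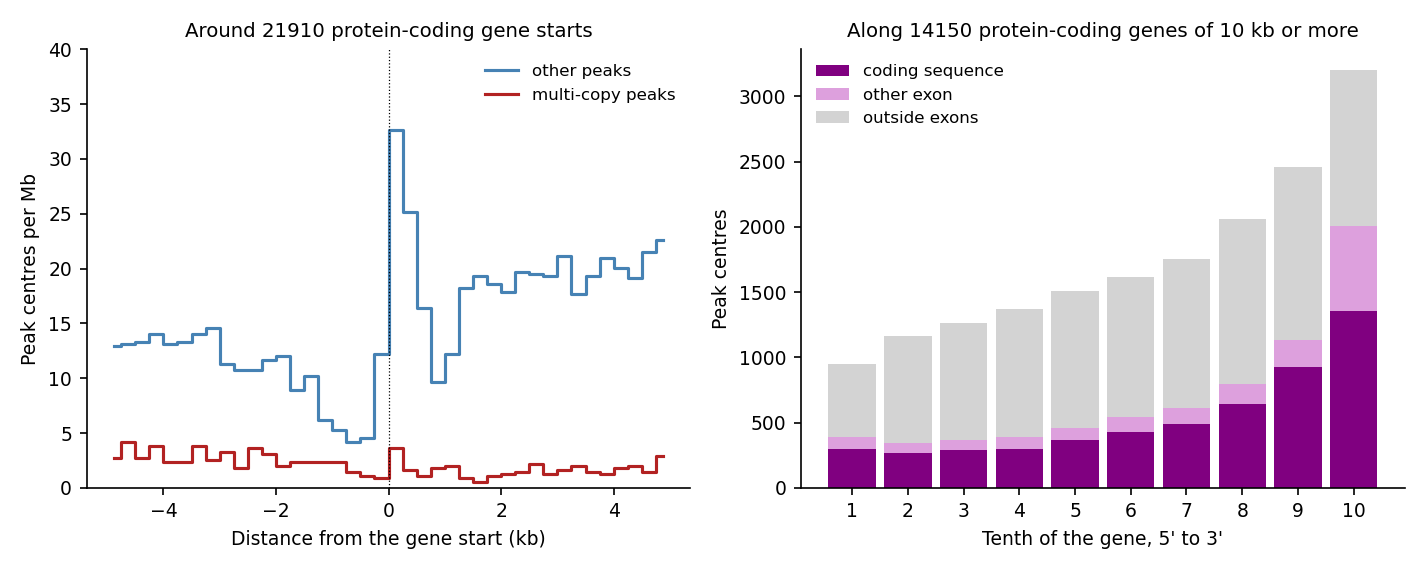
Left, peak centres per Mb (vertical axis) by distance from the start of 21910 protein-coding genes in bins of 250 bp (horizontal axis, kb, negative upstream), for multi-copy peaks (red) and the others (blue). Right, peak centres in each decile of 14150 genes from 5' to 3', split by coding sequence, other exon and outside exons, and the last decile holds 3201 centres and the first 947.

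Among the autosomes, density ran from 11.3 peaks per Mb of known sequence on chromosome 14 to 17.2 on chromosomes 5 and 17, with an autosomal median of 13.6. It followed CpG content across the 21 chromosomes (Spearman's rho 0.853, a description over chromosomes that share libraries). The sex chromosomes stood apart in kind. All mice were males, and the densities were not corrected for the number of copies of each chromosome in a cell. Chromosome X had 9.22 peaks per Mb, of which 83.0% were multi-copy, leaving 1.57 per Mb, against 5.73 to 12.0 per Mb on the autosomes. Chromosome Y had 5.10 per Mb, 94.7% multi-copy. The share of peaks at a p of 1e-06 or less was 7.76% on X and 8.02% on Y, against 1.81% to 4.91% on the autosomes.

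**Figure D4:**
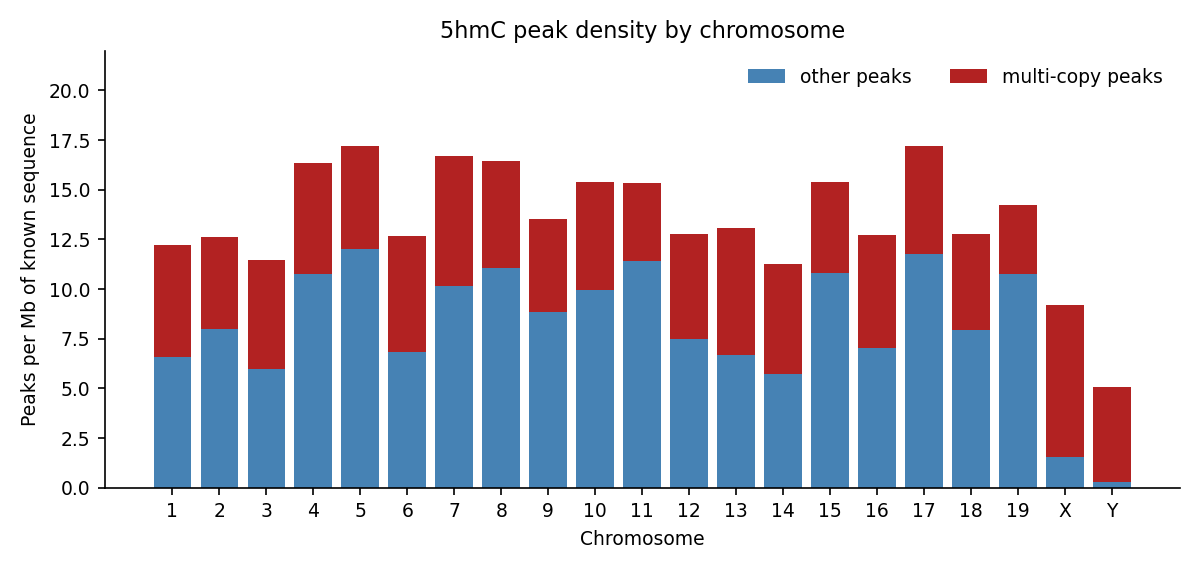
Peaks per Mb of known sequence (vertical axis) for each chromosome (horizontal axis), stacked as multi-copy peaks (red) on the other peaks (blue). Chromosome X keeps 1.57 other peaks per Mb, below the 5.73 to 12.0 of the autosomes.

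Peaks were spread along the genome, and 2653 of 2737 windows of 1 Mb held at least 1, with a median of 11. The median gap between neighbours was 30.2 kb, yet 9.55% of gaps were under 1 kb. The 1-Mb window with most peaks, chr5:114000001-115000000, held 102, of which 2 were multi-copy. In it were Acacb, an acetyl-CoA carboxylase of fat metabolism, with 16 peaks, Ube3b with 7 and Trpv4, a calcium channel of airway and lung endothelium, with 5. The next megabase, which holds most of Cit, had 69. On chromosome 10 the windows from 80 to 81 Mb and from 81 to 82 Mb held 89 and 80 peaks, the first with Atp8b3 (6), Tcf3 (5) and Apc2 (5).

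The list overlapped 8804 genes by its gene columns, and 7239 of them are among 21910 protein-coding genes of GENCODE vM21 (33.0%). At a p of 0.001 or less the share of protein-coding genes was 5.35%, and at 1e-06 or less 0.977%. A single peak was found in 5367 genes and 10 or more in 102. Gene length weighed on these counts: 10.2% of the shortest decile of protein-coding genes and 65.4% of the longest held a peak. Most peaks were listed for Gm26870, a long non-coding RNA gene, with 32, of which 30 were multi-copy. Each of the 32 was also in both other hMeDIP-seq lists and in the MeDIP-seq list of the same comparison. Camta1, a calmodulin-binding transcription factor, had 31 peaks (best score 4.08), Fgfr2, a growth factor receptor of lung branching, 30 (5.01), and Cit, a kinase of cell division, 29 (3.46). The annotated span of Fgfr2 is 2961 kb, so its count is spread thinly. Of its 30 peaks 4 were multi-copy, among them the best one, with 99.4% of its windows copied. Prdm16, a transcription factor, had 21 (3.64), Hlcs, which attaches biotin to carboxylases, 21 (3.18), and Lrp1, an endocytic receptor, 21 (2.94). The axonemal dynein gene Dnah17 had 20 (2.69), as did the gene models C230088H06Rik (6.40) and C130026I21Rik (5.59), in which 11 and 18 were multi-copy. None of the peaks in Camta1, Cit, Prdm16, Lrp1 and Dnah17 were multi-copy.

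Per kb, among genes with at least 5 peaks and a span of at least 2 kb, small genes led. Asmt, which makes melatonin and lies at the end of X, had 6 peaks in 5.41 kb, with scores of 2.47, 5.27, 4.56, 3.48, 4.18 and 4.29. All but 2 were also in lists of 5mC. Jak3 had 7 in 14.3 kb, with scores from 2.11 to 4.36. Of these 4 were in coding exons, 3 in no other list, and none in any MeDIP-seq list. Lamb2, a laminin of basement membranes, had 7 in 10.8 kb (best score 2.29), Aebp1, a matrix-associated protein, 5 in 10.1 kb (2.56), and Jag2, a Notch ligand, 10 in 22.0 kb (3.55). The gene models Gm26870, Gm15726 and Gm21887 also ranked here. Thtpa and Lipo1 ranked by the gene columns with 5 and 6 peaks, but none of these lay in their spans in GENCODE vM21.

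Of 25 enzymes and readers of 5mC and 5hmC, 10 held a peak, beside 33.0% of protein-coding genes. Tet3, which oxidizes 5mC to 5hmC, had 6, and their scores along chromosome 6 were 2.07, 1.84, 2.51, 1.30, 2.63 and 2.67. Of these 5 were in exons, and all 6 were also listed where F0-HDM_F1-HDM mice were searched against F0-Saline_F1-HDM mice. Tet1 had 2, in its first and a late coding exon (2.50 and 1.71), and Tet2 had none. Dnmt1, the maintenance methyltransferase, had 4 with scores from 1.29 to 2.20. By the gene columns Dnmt3a and Dnmt3l had 1 each (1.32 and 1.61) and Dnmt3b none, while the annotated span of Dnmt3a held 3. The reader Mbd3 held the best score of the group (3.50), in an intron and 12 bp from the closest transcript start. The glycosylases Smug1 (3.11) and Tdg (2.06), the reader Mbd1 (2.35) and Uhrf1 (2.08), which guides Dnmt1, had 1 each. Of the 25, Mbd3 and Smug1 reached a p of 0.001.

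Of 25 genes of type 2 cytokines and their signalling, 9 held a peak (36.0%), close to the 33.0% of all protein-coding genes and the 31.6% of those of the same length deciles. Jak3 had 7, Tyk2, another Janus kinase, 3 (1.70, 2.96 and 2.01), and Gata3 and Batf, a factor of helper T cells, 2 each. Stat6, the factor below the IL-4 receptor (1.502), Il4ra (1.39), Irf4 (1.34), Ptgdr2, the prostaglandin D2 receptor of type 2 cells (1.58), and Il4 itself (1.29) had 1 each. Il5, Il13 and Il9 had none, nor had Il13ra1, Csf2rb, Jak1 or Maf. Of 19 alarmin and innate lymphoid genes 7 held a peak (36.8%, same-length share 32.9%). Il1rl1, the receptor of IL-33 (3.11, with 36.1% of its windows copied), Crlf2, that of TSLP (2.99), and Il25 (2.20), an alarmin, had 1 each, and Rora, a factor of innate lymphoid cells, had 6 (best 1.86), while Il33 and Tslp had none. Only Gata3 and Il1rl1 in that list, and Jak3 and Gata3 in the type 2 list, reached a p of 0.001.

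House dust mite sensing genes held peaks in 13 of 26 (interval 29.9 to 70.1%), beside 33.0% of all protein-coding genes and 31.4% of those of the same length deciles. F2r, a protease-activated receptor, had the best score in a coding exon (4.07), Nod1, a sensor of bacterial wall, 3.30 with no peak in another list, Rela, a subunit of NF-kappaB, 3 peaks (2.09, 3.08 and 2.26), and Tlr4, the endotoxin receptor, 2 (best 3.00, mostly copied sequence). Of 50 chemokines and receptors 7 held one (interval 5.82 to 26.7%, same-length share 21.4%), led by Ccr7 (2.85) and Cx3cr1 (6 peaks, best 2.66). None of these reached a p of 0.001. T cell identity genes held peaks in 9 of 28 (same-length share 37.5%), led by Bcl11b (8 peaks), Nfatc2 (6) and Nfatc1 (6, best 3.52), with none in Cd3e or Cd4. B cell genes had 6 of 21 (same-length share 36.8%, best Irf8, 2.63), and myeloid, eosinophil and mast cell genes 9 of 38 (same-length share 28.1%, best Spi1, 2.72).

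Lists of structural genes ranged from 9 of 30 for lung epithelium to 26 of 38 for motile cilia, beside 33.0% of all protein-coding genes. Motile cilia genes held peaks in 26 of 38 (68.4%, interval 51.4 to 82.5). These are long genes, with a median span of 87.6 kb, and 49.8% of all protein-coding genes of the same length deciles held one. Dynein heavy chains led by number, Dnah17 with 20, Dnah10 with 16 (2.95) and Dnah2 with 13 (2.31). The best score of the group, 10.3 in an intron of Dnah6, was in multi-copy sequence. Airway smooth muscle genes had 13 of 28 (46.4%), beside a same-length share of 46.0%. Among them were Itpr1, a calcium release channel, at 6.09 in mostly copied sequence, Myocd, the master factor of smooth muscle, at 2.89 and Smtn at 2.51. Acta2, Tagln and Cnn1 had none. Fibroblast and matrix genes had 15 of 29 (interval 32.5 to 70.5%, same-length share 41.1%), led by Tnc (3.70), Col14a1 (3.28, multi-copy) and Col6a1 (2.77). TGF-beta signalling genes had 17 of 31 (54.8%, same-length share 46.1%), led by the receptor Tgfbr2 (4.01), Smad6, an inhibitory Smad (3.99), and Ltbp3, which holds latent TGF-beta in the matrix (5 peaks, 2.69). Endothelial genes had 9 of 24 (same-length share 39.7%), with Erg at 7.85 in copied sequence, Cdh5 at 3.39 and Prox1 at 3.24. Lung epithelial genes had 9 of 30 (same-length share 28.05%), with Epcam at 3.36 and Krt5 at 2.27 and none in Nkx2-1, Foxj1 or Scgb1a1. Mucus genes had 8 of 21 (same-length share 33.5%), with Muc19 at 5.13 in copied sequence, Foxa3 at 2.35, Spdef at 2.13 and Muc5ac at 1.94. Imprinted genes had 20 of 37 (54.1%, interval 36.9 to 70.5, same-length share 37.4%). Plagl1 held its best peak 19 bp from a start (3.66), and Zim1 (3.40), Rtl1 (3.38) and Igf2r (3.35) followed. Circadian and housekeeping comparison genes had 7 of 25 (28.0%, same-length share 28.7%), led by Clock (4.39, copied sequence).

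**Figure D5:**
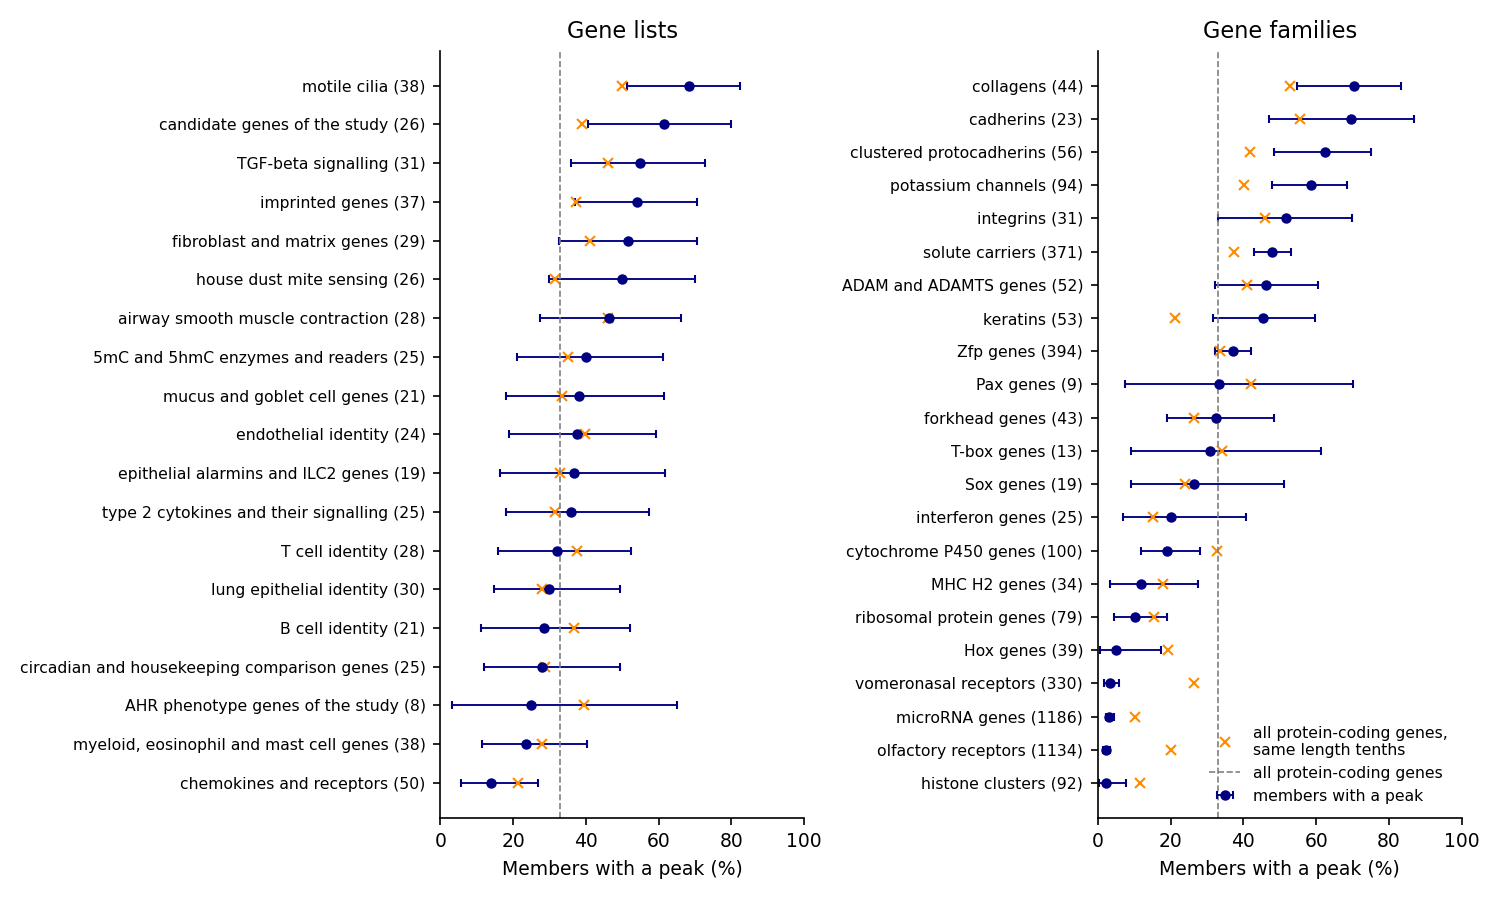
Percent of members with a peak (horizontal axis, dots with exact 95% intervals) in gene lists and families, with the number of members found in parentheses. The dashed line is 33.0% of all protein-coding genes, and crosses are all protein-coding genes of the same length deciles, and motile cilia genes lie at 68.4% and olfactory receptors at 2.20%.

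The study chose its 26 candidate genes from another comparison, F0-HDM_F1-HDM with F0-Saline_F1-HDM mice, as genes that differed in both 5mC and 5hmC. That comparison shares the F0-Saline_F1-HDM library with this list, so the count of candidates is not independent evidence. Of the 26 candidate genes 16 held a peak (61.5%, interval 40.6 to 79.8), beside 33.0% of all protein-coding genes and 38.8% of those of the same length deciles. Of these, 10 reached a p of 0.001, beside 5.35% of all protein-coding genes. The best scores were those of Erdr1 (15 peaks, 18.1), Luzp2 (9 peaks, all multi-copy, 11.45), Eef2 (7.45), Spag17 (5.83), Asmt (5.27) and Muc19 (5.13, mostly copied). Then came Lars2, a mitochondrial leucyl-tRNA synthetase (3.88), Aida (3.84), Kcnh1 (3.53, copied), Tmem125 (3.12), Ranbp3l (2.62, copied), Col23a1 (2.58, copied), Foxi1 (2.13), Mrs2 (1.93, copied), Dpcd (1.59) and Oasl2 (1.39). The best peaks of Erdr1, Luzp2, Eef2, Spag17, Asmt, Muc19, Lars2, Aida and Ranbp3l were in all 6 lists. Of the 8 genes of the airway phenotype 2 held a peak. Mylk, the myosin light chain kinase, had 4 by the gene columns (1.81, 1.35, 2.76 and 2.64) and 7 in its annotated span. Col1a1, the main fibrillar collagen, had 3 (1.44, 1.64 and 2.03). Ccnd1, Pcna, Col3a1, Muc5b, Acta2 and Camk2d had none.

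Gene families spanned a wider range than the lists did. For comparison, 33.0% of all protein-coding genes held a peak, and a same-length share is that of all protein-coding genes of the same length deciles. Olfactory receptors had a peak in 25 of 1134 (2.20%, interval 1.43 to 3.24) by the gene columns and in 43 by annotated span, and vomeronasal receptors in 11 of 330 (3.33%) and 19, with Vmn2r35 (9 peaks, best 9.09) in multi-copy sequence. Histone genes, grouped by name, had 2 of 92 (2.17%, same-length share 11.7%), Hist1h2aa and the variant histone gene H2afy2. Hox genes had 2 of 39 (Hoxb3 and Hoxa2, same-length share 19.2%, and 6 by annotated span). Ribosomal protein genes had 8 of 79 (10.1%, same-length share 15.3%), and MHC H2 genes 4 of 34 (11.8%, same-length share 18.0%). Cytochrome P450 genes had 19 of 100 (same-length share 32.7%). Collagens had 31 of 44 (70.5%, interval 54.8 to 83.2), where 52.8% of all protein-coding genes of the same length deciles had one. Cadherins, which are long genes, had 16 of 23 (interval 47.1 to 86.8%), and their same-length share of 55.6% lies inside that interval. Clustered protocadherins had 35 of 56 (62.5%) beside a same-length share of 41.7%, potassium channels 55 of 94 (58.5%) beside 40.1%, and solute carriers 178 of 371 (48.0%) beside 37.4%. Keratins were short genes with many peaks, 24 of 53 (45.3%, interval 31.6 to 59.5), where 21.2% of all protein-coding genes of the same length deciles had one. Krt7 (3.44, in no other list) and Krt72 (3.56) each held one in an exon 1. Among collagens the triple of peaks in Col6a2 (3.44, 3.38 and 4.39) lay in coding exons, while the best one in Col4a5 (5.06) was multi-copy. The 2 strongest potassium channel peaks, in Kcnab1 (7.79) and Kcnh5 (6.82), were multi-copy. Zfp genes had 146 of 394 (37.1%, same-length share 33.6%), led by Zfp704 (6.31, with 90.6% of windows copied), Zfp319 (5.10), Zfp64 (4.81) and Zfp775 (4.80), the last 3 in coding exons. Forkhead genes had 14 of 43 (Foxo3 4.46 in exon 3, Foxk1 8 peaks), Sox genes 5 of 19 (Sox5 10 peaks), T-box 4 of 13 and Pax 3 of 9. Integrins, grouped by name with Itgbl1, had 16 of 31, and ADAM and ADAMTS genes 24 of 52. Interferon and interferon receptor genes had 5 of 25, among them the receptors Ifngr2 (2.85), Ifnar1 (2.32) and Ifnar2 (1.60). MicroRNA genes had 38 of 1186 (3.20%, same-length share 10.3%) by the gene columns and 76 by span. The Gm gene models had 1078 (4.04%, same-length share 14.9%) and 2295 by these counts, and the Rik gene models 333 (11.1%, same-length share 24.6%) and 517.

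The list differed from the other 5 first in width. Its median peak was 699 bp long (quartiles 627 and 761), where the medians of the others lay between 346 and 445 bp, so overlap comes more easily to it. The hMeDIP-seq list that searched F0-HDM_F1-HDM against F0-Saline_F1-HDM held a peak at 88.3% of its places, which were 37.1% of that list. The hMeDIP-seq list that searched F0-HDM_F1-Saline against F0-Saline_F1-Saline held one at 61.4%, 58.3% of that list. The first uses the F0-Saline_F1-HDM library as control and the second the F0-Saline_F1-Saline library, so the lists are not independent and the overlap is a description. The MeDIP-seq list of the same comparison held a peak at 13.0% of the places (7.45% of that list), rising to 42.9% for the peaks at 1e-10 or less. No other list had a peak at 2990 places (8.36%). These had a median score of 1.57, and 68.3% had their centre in a gene and 19.6% were multi-copy, against 43.3% and 67.1% for the 1054 peaks present in all 6 lists.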

How the data were processed

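Lung DNA of F1 males was captured for 5hmC (hMeDIP-seq) or 5mC (MeDIP-seq), with 1 pooled library per group and assay, 8 libraries in 4 groups. CASAVA 1.8.0, FastQC, Bowtie 0.12.9 and mm10 are named in the processing notes of the submitters, and the paper's methods name CLC Genomics Workbench for the peaks. The score of each peak is a shape score made by the authors' peak caller, and it was used only to rank peaks. The p-value is the one deposited by the authors and equals the upper normal tail of the score. It was used only to filter. The columns of gene names and distances were used as deposited, and a gene was counted at a distance of 0. Reads were not analysed here, and the depth per peak is unknown.

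Genes, exons and starts came from GENCODE vM21 and sequence from GRCm38. Of the 8804 gene symbols 8613 matched, 242 of them through older symbols in RefSeq. Start distance runs from a peak's centre to the closest start of any transcript. A peak was multi-copy where at least 50% of its 51-bp windows had another exact copy on the assembled chromosomes of GRCm38. Tiles of 700 bp with at least 90% known bases gave the genome values. Lists counted as sharing a peak at 1 bp or more. Named are the genes at the 10 highest scores and 5 longest peaks, the 10 with most peaks, the 10 with most peaks per kb, up to 4 members of each list and family with the lowest p, and the genes of the study. The single-copy peaks in no other list, the repeat families, the position of coding bases along genes and the genes of the dense windows were added with the values in view. The members, gene lists and rules were chosen with earlier results of these data known. Work was done in Python 3.11.15 (scipy 1.17.1, numpy 2.4.6, numba 0.67.0, pandas 2.3.3, matplotlib 3.10.9), and the overlap and window-copy counts were tested on simulated data. A few genes, a gene family and a sequence that these rules select are not reported here.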

Additional observations from a re-analysis of the deposited data

How the results depend on the processing

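No paired analysis was possible because each group has 1 pooled library, so no replicate could be left out either. At a p of 0.001, 1e-06 and 1e-10 or less the peaks numbered 4633, 1209 and 434, and the genes overlapped 1367, 263 and 82. By annotated span 11252 genes held a peak, by a start within 2 kb 6274, and without places in 3 or more other lists 7908. The share of centres near a start was 13.9% within 1 kb, 32.3% within 5 kb, and at the 2-kb window 14.01% and 9.68% at a p of 0.001 and 1e-06 or less. The share of peaks also in the MeDIP-seq list of the same comparison was 11.3% when 50% of the shorter peak had to overlap, and 21.6% and 29.5% at those p. Median CpG content was 5.63 and 6.16 per 100 bp at those p. The autosomal median density was 8.85 peaks per Mb without multi-copy peaks. Counts by annotated span stayed within 1.5 times of those by gene columns in 38 of 44 gene lists and families. The exceptions all rose, Hox genes from 2 to 6, olfactory receptors from 25 to 43, vomeronasal receptors from 11 to 19, microRNA genes from 38 to 76, Gm models from 1078 to 2295 and Rik models from 333 to 517. At a p of 0.001 or less the count of every list and family fell by more than that. Without replicates or reads, no spread between mice and no depth behind a peak could be given.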
